A study of Mus musculus with 2 samples.

Results

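The ectodysplasin pathway is a branch of tumour necrosis factor (TNF) signalling that patterns teeth, hair and sweat glands, and the RNA of its genes was measured here in a mouse dental epithelial cell line treated with an activator of the β-catenin pathway. 6 genes were chosen by name: Eda, Edar, Edaradd, Eda2r, Tnfrsf19 and Traf6. They are 6 of the 37074 gene names on the array and are represented by 18 of its 56605 distinct probes. mDE6 cells, an established mouse odontogenic epithelial cell line, received DMSO vehicle (the control) or CHIR99021 for 6 h, and RNA of each culture was hybridised to 1 single-colour array. CHIR99021 inhibits GSK-3, a kinase that marks β-catenin for destruction, and so activates the β-catenin pathway. The sample labels give the dose as 5 mM, whereas the study's methods give it in μM and call the control untreated.

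In this pathway the ligand ectodysplasin, encoded by Eda, is made in splice forms that differ in receptor: EDA-A1 binds EDAR, and EDA-A2 binds EDA2R (XEDAR), the product of an X-linked gene. EDAR recruits its own adaptor EDARADD, which brings in the ubiquitin ligase TRAF6 and the TAK1 and IKK kinase complexes, and NF-κB then enters the nucleus. EDA2R can bind TRAF6 directly. TROY, encoded by Tnfrsf19, is a related receptor of ectodermal organs that also binds TRAF proteins. In people and mice, loss of EDA, EDAR or EDARADD causes hypohidrotic ectodermal dysplasia, with missing or misshapen teeth, and Wnt/β-catenin signalling acts upstream of Edar in the early tooth and hair placodes.

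The first reading was which of these RNAs mDE6 cells held at all. A probe counted as measured on an array where the scanning software marked its signal as well above background. Of the 18 probes, 6 were measured on both arrays (1 of Eda, 2 of Tnfrsf19 and 3 of Traf6), 4 on 1 array and 8 on neither. Edar and Edaradd were measured on neither array. Tnfrsf19 and Traf6 were measured in both conditions by several probes, Eda by 1 probe, and Eda2r in the control alone.

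The 2 sequences below are probes of the array itself, shown as what the array reads of the ligand and of TROY: the former was measured in the control alone, and the latter in both conditions. Capitals are not used in them, since the whole probe matters. The Eda probe A_55_P2030667 matches chrX:97590368-97590427 on the plus strand of mm9, and the Tnfrsf19 probe A_55_P2742341 matches chr14:61615452-61615511 on the minus strand. An open reading frame ran the whole length of the former in 1 of its 3 forward frames and of the latter in 3.
Eda probe A_55_P2030667: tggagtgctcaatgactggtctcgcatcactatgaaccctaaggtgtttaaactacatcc
Tnfrsf19 probe A_55_P2742341: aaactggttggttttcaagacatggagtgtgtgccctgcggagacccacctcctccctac

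**Figure D1:**
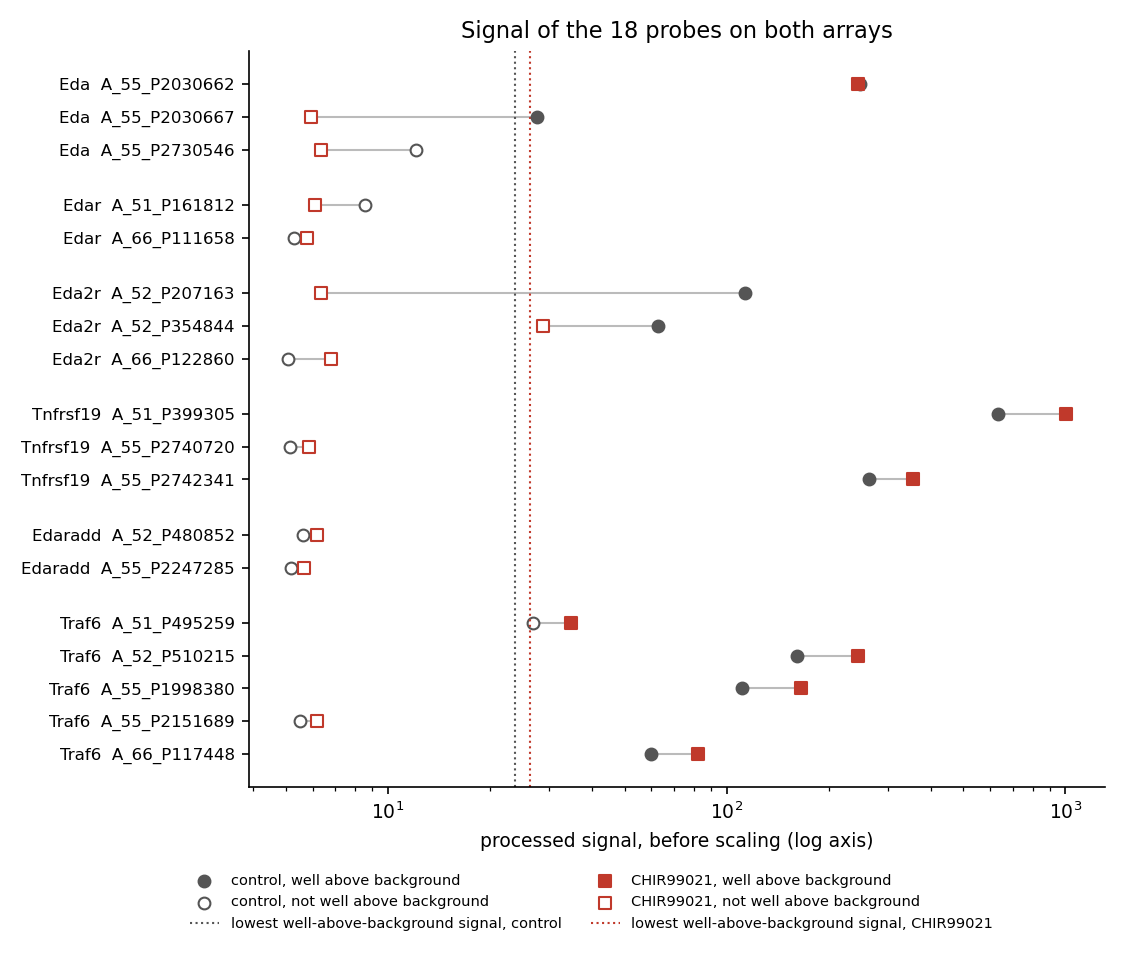
Processed signal before scaling, on a log axis, of each of the 18 probes on the control array (circles) and the CHIR99021 array (squares). Filled symbols are well above background, open symbols are not, and dotted lines mark the lowest signal well above background on each array, 23.7 for the control and 26.3 for CHIR99021. Both probes of Edar and both of Edaradd are open on both arrays, and the only filled-to-open changes are 1 probe of Eda and 2 of Eda2r.

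For comparison between the arrays, each signal was divided by its array's 75th percentile (486.7 in the control and 469.17 with CHIR99021). Ratios below are CHIR99021 over control on this scale, and signals are given before scaling. With 1 array in each condition there is no replicate of either condition and no statistical test, and position on the slide and condition cannot be told apart. The number of arrays limits the precision. An error within the arrays came from probes printed 10 times: 6 of the 300 such probes had signals between 46.5 and 462, within the range of most of the measured probes here, and the SD of the log2 ratio among their spots was between 0.09 and 0.25, with a median of 0.18. A probe was called lower where its ratio was 0.66 or less and its Z-score -2 or less. The ratio limit and the size of the Z-score are those of the study's methods, which print the Z-score without a sign and give criteria for lower genes alone; it was read here as negative, and the rule for higher probes, a ratio of 1.5 or more and a Z-score of 2 or more, was set here. The Z-score sets the log2 ratio against the 500 probes nearest in mean signal.

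Over the whole array, 28066 probes were measured on at least 1 array, of which 2.72% were called lower and 2.39% higher by both criteria, and 9.68% and 8.24% by the ratio alone. Of the 10 pathway probes among them, 1 was called lower and 0 higher by both criteria, and 3 were past the ratio each way. These counts use the ratio as computed: the 3 lower ones (1 of Eda and 2 of Eda2r) rest on CHIR99021 signals not well above background, and the limit of the Eda probe does not reach 0.66. Large changes lay unevenly on the slide. Of 1277 probes with a computed ratio past 4-fold either way, 92.9% were printed past row 192 of 384, in what are called the later rows here, against 51.6% of all measured probes, so that the row is given below for the pathway probes that were measured and for the listed genes past a ratio. All 6 pathway probes measured on both arrays had a ratio over 1, with a median log2 ratio of 0.57, against a median of 0.04 and 55.4% over 1 for all 25025 probes measured on both arrays; the Eda probe alone was under 1 in 2 of 8 scalings. These 6 probes come from 3 genes, so they are not 6 independent readings. Requiring both arrays left out the 3 probes past the lower ratio, whose CHIR99021 signals were not well above background. It also left out 1 Traf6 probe that was not well above background in the control.

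The ligand gene came first. Eda probe A_55_P2030662 (chrX:97596039-97596098, plus strand, mm9, row 203) had a signal of 248 in the control and 245 with CHIR99021. Its ratio was 1.02, a log2 ratio of 0.03, smaller than the spread among repeated spots, and its Z-score was 0.13. The direction of so small a difference was not fixed: across 8 scalings of the arrays the ratio ran from 0.987 to 1.09. The second Eda probe, A_55_P2030667, had a signal of 27.6 in the control, just above the lowest signal well above background there, and 5.94 with CHIR99021, which was not well above background. Counted from the lowest signal well above background on the CHIR99021 array, 26.3, its limit was 1.01-fold lower. Such limits, given below as at least a fold, are not strict bounds: Eda2r probe A_52_P354844 was not well above background at 28.7 on that array. The computed ratio of A_55_P2030667 still put it among the 3 probes past the lower ratio. The control spot lay in row 261, its pixels varied more (SD over mean of 0.271) than in 99% of the measured spots of the earlier rows (0.260), and 14 spots within 3 rows and columns were measured on 1 array alone with over 4-fold computed change. The third Eda probe, on a cDNA at chrX:97173712-97173771, was not well above background in either condition (12.1 and 6.33). Thus the 1 probe of the ligand gene measured on both arrays gave near-equal signals.

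Edar, the receptor of EDA-A1, gave no measurable signal in either condition. Its probe A_66_P111658 had a signal of 5.29 in the control and 5.79 with CHIR99021, and its probe A_51_P161812 had 8.55 and 6.11. These probes lie on the minus strand of chromosome 10, at chr10:58064202-58064261 and chr10:58063793-58063851. All of these signals were under the lowest value well above background on their array, and no ratio is given. Any Edar RNA in these cells was therefore not detectable at the depth of the array, in the control and after 6 h of CHIR99021 alike.

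Eda2r, the receptor of EDA-A2, was measured in the control and not after CHIR99021, at 2 of its 3 probes. Probe A_52_P354844 (chrX:94529458-94529517, minus strand) had a signal of 62.7 in the control and 28.7 with CHIR99021, and was at least 2.10-fold lower. Its Z-score was -0.63, so it met the ratio criterion and not both. It lay in row 112, among the earlier rows, with 0 spots of large one-array change within 3 rows and columns. Its pixels were no more uneven than those of other measured spots, with an SD over mean of 0.190 in the control.

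Probe A_52_P207163 of Eda2r (chrX:94533873-94533932, minus strand) fell from 113 in the control to 6.35 with CHIR99021, a limit of 4.16-fold lower, with a Z-score of -2.12. It was the only pathway probe called by both criteria. With normexp background correction this probe had a smaller limit, -0.92 on the log2 scale or a ratio of 0.527. Its control spot lay in row 311 and was uneven, with an SD over mean of 0.345, and 10 spots within 3 rows and columns had a large change on 1 array alone. Without uneven spots, or within the earlier rows alone, 0 pathway probes were called lower. The part of the slide position in this call was not tested. The third probe, A_66_P122860 at chrX:94534281-94534340, was not well above background in either condition (5.08 and 6.80). It is assigned to the same transcript as A_52_P207163.

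**Figure D2:**
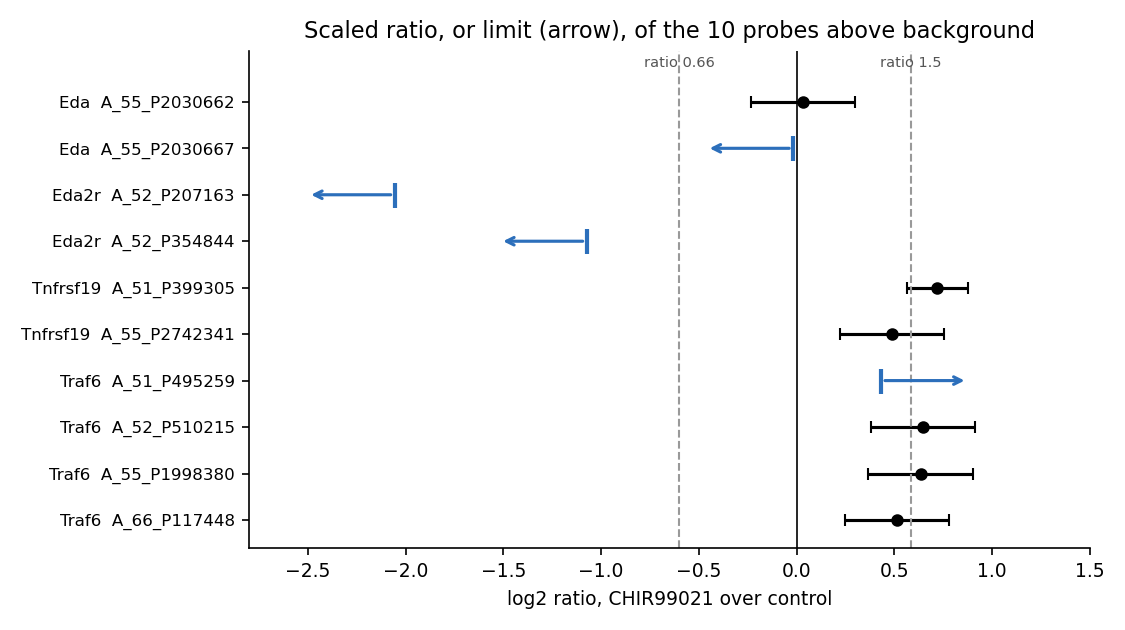
Log2 ratio of CHIR99021 over control, after scaling, for the 10 probes measured on at least 1 array. Points are probes measured on both arrays, with bars of 1 SD of the log2 ratio among spots of repeated probes (0.158 for Tnfrsf19 A_51_P399305 and 0.267 elsewhere); blue bars with arrows are limits where 1 array was not well above background, and dashed lines mark ratios of 0.66 and 1.5. All points of Tnfrsf19 and Traf6 lie right of 0, that of Eda on it, and the limits of Eda2r left of the lower dashed line.

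Tnfrsf19, the gene of TROY, had the largest ratio among the 6 pathway probes measured on both arrays. Probe A_51_P399305 (chr14:61582948-61583007, minus strand, row 232) had a signal of 631 in the control and 1003 with CHIR99021, a ratio of 1.65 and a log2 ratio of 0.72. The Z-score was 1.91, just short of 2, so the probe met the ratio criterion alone. Probe A_55_P2742341, whose sequence is given above, lies in row 15 and had 263 in the control and 355 with CHIR99021, a ratio of 1.40 (Z-score 1.33). Directly adjacent spots measured on both arrays had a median log2 ratio of 0.25 for this probe (4 spots) and -0.47 for A_51_P399305 (2 spots). The log2 ratios of these probes differed by 0.23, within the range of spread among repeated spots, and their geometric mean ratio was 1.52. Both log2 ratios exceeded 0.25, the highest SD among the 6 repeated probes above, whose signals were all below that of A_51_P399305. That spread is among spots within the arrays and holds no variation between cultures. The ratio ran from 1.57 to 1.75 across the 8 scalings for the former probe and from 1.33 to 1.49 for the latter. The scalings moved the median log2 ratio of all tested probes only between -0.027 and 0.112, so they could hardly have reversed either direction. With the Z-score taken from the median and median absolute deviation of the 500 nearest probes, A_51_P399305 was called higher by both criteria, but that rule is looser over the whole array, calling 1282 of 28066 probes higher in place of 670.

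The other Tnfrsf19 probe, A_55_P2740720, was not well above background in either condition (5.16 and 5.85). It lies at chr14:61585200-61585259 on the plus strand, opposite to the other Tnfrsf19 probes, and is assigned to a cDNA clone.

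**Figure D3:**
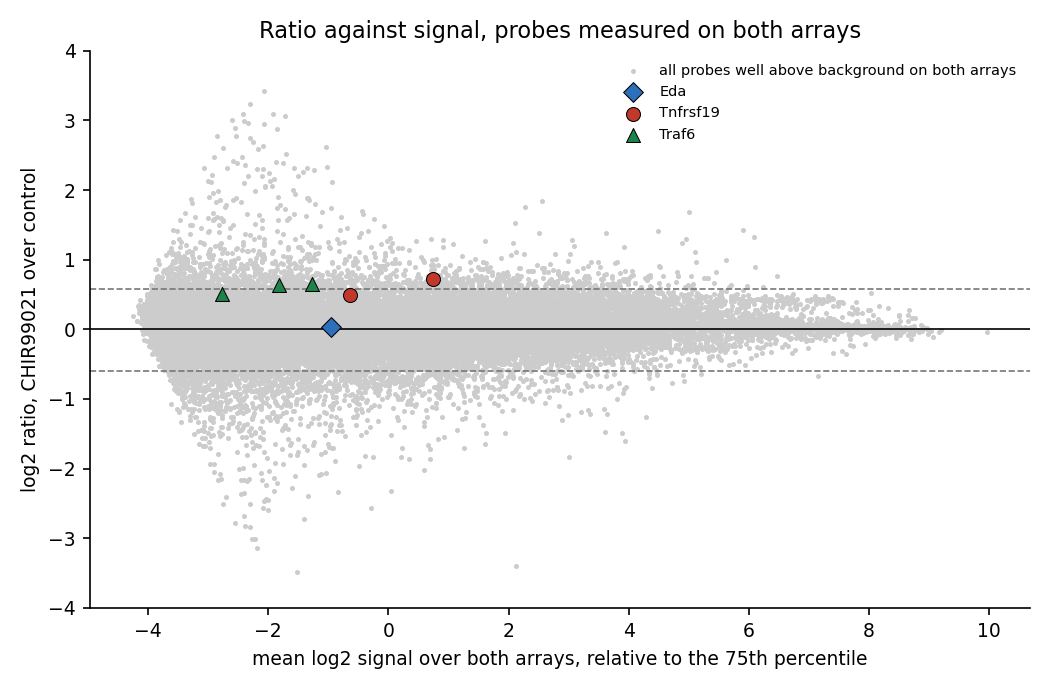
Log2 ratio of CHIR99021 over control against the mean log2 signal of both arrays relative to the 75th percentile, for the 25025 probes measured on both arrays (grey), with the probes of Eda, Tnfrsf19 and Traf6 marked. Dashed lines are ratios of 0.66 and 1.5. Both Tnfrsf19 points and all 3 Traf6 points lie above 0, within the grey cloud at their signal, and the Eda point lies on the line.

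Among the adaptors, Edaradd, which links EDAR to TRAF6, was not measured. Probe A_52_P480852 (chr13:12563558-12563617, minus strand) had 5.62 in the control and 6.17 with CHIR99021, and probe A_55_P2247285 (chr13:12565820-12565879) had 5.17 and 5.65. Both genes specific to the EDA-A1 arm, Edar and Edaradd, thus stayed at background in both conditions.

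Traf6, the shared ubiquitin ligase, was measured on both arrays by 3 probes, and all 3 had higher signals with CHIR99021. Probe A_52_P510215 (chr2:101540660-101540719, plus strand, row 293) had 162 in the control and 244 with CHIR99021, a ratio of 1.57 and a log2 ratio of 0.65. Probe A_55_P1998380 (chr2:101519206-101519265, row 152) had 111 and 166, a ratio of 1.55. Probe A_66_P117448 (chr2:101537964-101538023, row 332) had 59.8 and 82.4, a ratio of 1.43. The 5 Traf6 probes lie within 23351 bases of the genome. The log2 ratios of the 3 measured on both arrays differed by 0.13 at most, and their geometric mean ratio was 1.51. None of the 3 met both criteria, with Z-scores of 1.37, 1.24 and 0.50.

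The fourth Traf6 probe, A_51_P495259 (chr2:101542497-101542556, row 245), had 26.8 in the control, not well above background, and 34.8 with CHIR99021, at least 1.35-fold higher. The fifth, A_55_P2151689, was at background in both conditions (5.51 and 6.16). The control spots of A_52_P510215 and A_51_P495259 were uneven, with an SD over mean of 0.271 and 0.277. Probe A_55_P1998380, at a log2 ratio of 0.63, was in the earlier rows and even on both arrays. With normexp background correction the ratios of A_52_P510215, A_55_P1998380 and A_66_P117448 were 1.37, 1.36 and 1.17, all under 1.5, and the last, a log2 ratio of 0.22, was within the 0.267 spread among repeated spots. Across the 8 scalings A_55_P1998380 was under 1.5 in 3, and all 3 probes stayed over 1 in each.

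**Figure D4:**
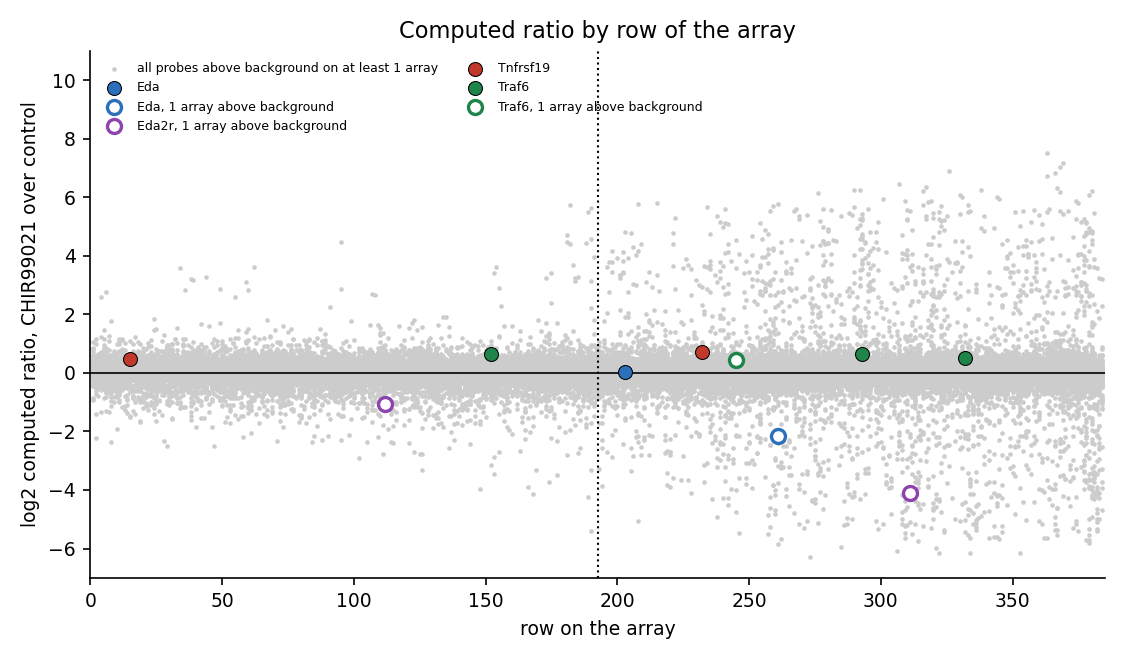
Log2 of the computed ratio of CHIR99021 over control against the row of the spot, for all 28066 probes measured on at least 1 array (grey) and the 10 pathway probes (coloured; open where only 1 array was well above background). The dotted line is the middle of the array, at row 192. The grey points spread far wider in the later rows, where Eda2r A_52_P207163 and Eda A_55_P2030667 lie, whereas Eda2r A_52_P354844 lies in the earlier rows.

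The related genes of the pathway were read from lists, 1 probe per gene. Of the 12 genes that carry the signal from EDAR to IKK and NF-κB (Tab1, Tab2, Tab3, Map3k7, Chuk, Ikbkb, Ikbkg, Nfkb1, Nfkb2, Rela, Relb and Nfkbia), all 12 were measured on both arrays and 0 passed either ratio. Their median log2 ratio was 0.06, beside 0.03 over all 18837 gene names measured, with limits entered at their bound. Over those gene names 9.67% were past the lower ratio and 8.05% past the higher one, and 3.24% and 2.67% met both criteria. Nfkbia, the NF-κB inhibitor that NF-κB itself induces, had the highest ratio of the 12, 1.26, from 13633 in the control to 16518 with CHIR99021. Furin, the protease that releases EDA from the cell surface, had a ratio of 1.00. Tab2, an adaptor of TAK1, had the lowest, 0.888.

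The other TRAF adaptors, Traf1 to Traf5, were all measured on both arrays, and 0 of 5 passed a ratio. Traf1, itself an NF-κB target, had the highest, 1.45 (126 and 176). Of 12 other TNF receptor family members, 11 were measured, 2 were past the lower ratio and 0 past the higher, with a median log2 ratio of 0.14. Tnfrsf11b, the secreted decoy receptor osteoprotegerin, had 703 in the control and 409 with CHIR99021, a ratio of 0.603 (Z-score -1.93), in row 10. Cd40, a receptor of immune and epithelial cells, fell from 204 to 5.95 (not well above background), at least 7.47-fold lower, and met both criteria. Its control spot lay in row 330 and was uneven, with an SD over mean of 0.465, as with A_52_P207163 of Eda2r. Of the TNF ligands on the list, 8 were on the array, 3 were measured (Tnf, Tnfsf10 and Tnfsf12), and 0 passed a ratio.

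Of 15 genes that respond to EDAR in ectodermal organs, 9 were measured on at least 1 array, 1 was past the lower ratio, 1 past the higher on its computed ratio alone, and 0 met both criteria. Wnt10b, a Wnt ligand of the placode, had 631 in the control and 362 with CHIR99021, a ratio of 0.595, in row 23. Dkk4, a Wnt inhibitor of the placode, was not well above background in the control (5.09) and had 29.6 with CHIR99021, at least 1.30-fold higher, in row 361. It is the gene counted past the higher ratio, which its limit does not reach. Shh, Fgf20, Foxi3 and Sostdc1, signals and regulators of the placode and enamel knot, were not well above background in either condition. Of the others measured, Cxcl10 and Cxcl11, chemokines, had ratios of 1.42 and 1.03, Tnfaip3, the NF-κB feedback inhibitor A20, had 1.28, Nfkbia 1.26 and Fst, an activin antagonist, 1.08. The adhesion molecule gene Vcam1 had 0.731 and the Wnt ligand gene Wnt10a 0.808. Among partners of TROY, the R-spondin receptor genes Lgr4, Lgr5 and Lgr6 were measured at ratios of 0.871, 1.39 and 1.14, while Rtn4r and Lingo1, with which TROY forms a receptor in neurons, were not measured.

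**Figure D5:**
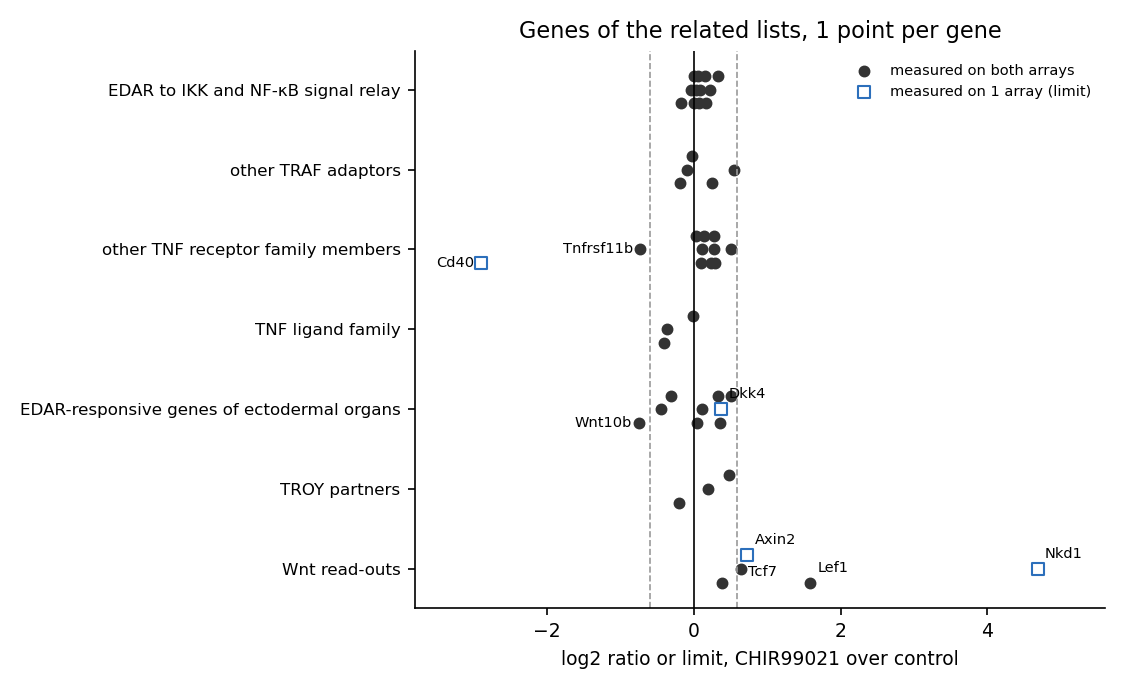
Log2 ratio of CHIR99021 over control for each measured gene of 7 related lists, 1 point per gene. Filled points were measured on both arrays, open squares are limits where 1 array was not well above background, and dashed lines mark ratios of 0.66 and 1.5; genes whose computed ratio passed a line are named. The 12 relay genes lie between the dashed lines, and Lef1 and Nkd1 lie farthest to the right.

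Genes that the β-catenin pathway induces in many tissues were read as a check of the treatment. Of 6 on the list, 5 were measured, 4 were past the higher ratio and 2, Lef1 and Nkd1, met both criteria, beside 8.05% and 2.67% of all gene names measured. Sp5, a direct target in many tissues, was not well above background in either condition (5.82 and 6.50). Lef1 had 239 in the control and 690 with CHIR99021, a log2 ratio of 1.58, in row 294, and its Z-score was 4.09. Tcf7 had 180 and 270, a ratio of 1.55, in row 166, and Notum, which encodes an enzyme that inactivates Wnt proteins, had a ratio of 1.30. Axin2 and Nkd1, feedback inhibitors, were not well above background in the control and were at least 1.66-fold and at least 25.8-fold higher, Axin2 in row 312 and Nkd1 at an uneven spot (0.401) in row 368. Of the Tnfrsf19 probes, A_51_P399305 (1.65) lay between Tcf7 and Lef1 in ratio, and A_55_P2742341 (1.40) lay below Tcf7. Neither met both criteria, and whether Tnfrsf19 responds to β-catenin was not tested.

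The label of the cells as odontogenic epithelium was set against marker genes. Trp63 and Krt14, markers of epithelium and its basal layer, were measured on both arrays, whereas Cdh1, Epcam, Krt8 and Cldn4 were at background on both. Trp63, with 2 of its 4 probes measured, had 2306 in the control and 2896 with CHIR99021. Krt14 was dim, at 48.5 and 54.6. Of 8 epithelial markers, 4 were measured on at least 1 array. The enamel matrix genes Amelx, Ambn and Enam were at background on both. Of 9 mesenchymal markers 8 were measured on both arrays, Col1a1 at a signal of 122712 in the control and 116216 with CHIR99021 and Vim at 52302 and 45883. Of these 8, Pax9 was past the lower ratio (0.659, row 69), Twist1 and Msx1 past the higher (1.55 in row 381 and 1.54 in row 303), and 0 met both criteria. Krt5, a basal keratin, was not well above background in the control and was at least 7.24-fold higher with CHIR99021, at an uneven spot (0.323) in row 379. Of 5 endothelial and blood cell markers 3 were measured, Pecam1 in the control alone, and 0 passed a ratio. The part of these cell type markers in the readings of the pathway was not tested. In bulk RNA, fewer cells of a type and less RNA per cell cannot be told apart.

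The promoters of Tnfrsf19 and Traf6 are shown because both genes gave higher signals with CHIR99021, and β-catenin acts on promoters and enhancers through TCF/LEF proteins. Each is the 250 bases before a transcription start in RefSeq (GRCm38.p6), 5′ to 3′ on the strand of the gene, with capitals on the core of the TCF/LEF motif, CTTTGA or CTTTGT on either strand. Tnfrsf19 has 2 starts. The first promoter, at chr14:61037988-61038237 (minus strand), held 1 match, on the opposite strand to the gene, 201 to 196 bases before the start. The second, at chr14:61046856-61047105, held 0. The Traf6 promoter, at chr2:101678170-101678419 (plus strand), held 1 match, 38 to 33 bases before the start.
Tnfrsf19 promoter 1: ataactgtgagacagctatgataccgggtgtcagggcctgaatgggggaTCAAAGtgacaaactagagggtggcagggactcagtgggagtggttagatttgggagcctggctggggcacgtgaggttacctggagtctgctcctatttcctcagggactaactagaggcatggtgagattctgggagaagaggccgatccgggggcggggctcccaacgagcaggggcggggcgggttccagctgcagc
Tnfrsf19 promoter 2: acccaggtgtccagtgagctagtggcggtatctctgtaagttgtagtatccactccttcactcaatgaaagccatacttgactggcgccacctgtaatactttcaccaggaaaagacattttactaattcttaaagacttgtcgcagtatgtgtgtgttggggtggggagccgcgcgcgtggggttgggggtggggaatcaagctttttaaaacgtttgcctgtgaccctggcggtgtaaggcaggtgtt
Traf6 promoter: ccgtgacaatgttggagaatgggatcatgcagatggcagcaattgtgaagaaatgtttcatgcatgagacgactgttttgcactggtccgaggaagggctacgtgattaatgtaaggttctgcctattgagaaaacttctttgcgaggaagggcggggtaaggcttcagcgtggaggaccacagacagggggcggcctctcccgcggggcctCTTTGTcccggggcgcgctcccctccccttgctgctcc

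These cores are common, being held by 27.6% of all 32851 promoters of this length. Edar and Edaradd, both at background, also held 1 match each, 233 to 228 and 145 to 140 bases before the start, and the promoters of Eda and Eda2r held 0. Of the general NF-κB pattern GGGNNNNNCC, read on both strands and held by 45.8% of promoters, there were 2 matches in the promoters of Eda, Eda2r and Traf6, 1 in that of Edar, and 0 in those of Edaradd and Tnfrsf19. A match describes these letters and is not evidence of binding.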

How the data were processed

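mDE6 cells were measured on 1 Agilent single-colour (Cy3) array of the control and 1 of CHIR99021, side by side on the same slide. The authors deposited, per the file headers, the processed signal of each spot, a background-subtracted intensity from Feature Extraction 10.7.1.1 (the submitters' processing notes name 9.5.1.1), with no normalization between arrays. They also deposited a table of normalized intensity values, whose columns had medians of 20.4 and 20.4. Each column matched its own array (Pearson r of 0.9999 on the log2 scale over 56605 probes), so scale and direction are known, and the normalization method is not given in the sources used here. That table was an alternative only. The study's methods name a human array, whereas the headers name a mouse design and mm9, in which probe coordinates are given.

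Control and outlier-flagged spots were left out, spots of a probe were averaged, and each log2 intensity was set relative to its array's 75th percentile (Python 3.11.15; pandas 2.3.3; numpy 2.4.6). Each array held 59305 spots, of which 29562 and 28636 were well above background in control and CHIR99021, and 0 were saturated. A probe was tested where either array was well above background. A gene was read at its probe with the highest mean signal. A limit set the bright signal against the higher of the dim probe's own signal and the lowest signal well above background on that array, and calls used the computed ratio. Signals over that lowest value were at times not marked as well above background, so the limits are not strict bounds. The bars of the ratio plot are the root mean square of the SD over the 50 repeated probes nearest in signal. For all but the brightest of the probes plotted these are the same 50, most of them dimmer or brighter than the probes described. The alternatives were other scalings, normexp with an offset of 50 (limma 3.58.1, R 4.3.3), other filters, Z-scores and probe rules. The 6 genes and the lists were chosen with earlier results of these data known. All 6 genes and all their probes are described, as are list members past a ratio and the Wnt genes. Figures used matplotlib 3.10.9.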

Additional observations from a re-analysis of the deposited data

How the results depend on the processing

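Eda, Eda2r, Tnfrsf19 and Traf6 were recomputed under 12 to 13 alternatives each. Scaling on spike-in probes, the earlier rows alone and the removal of uneven spots were chosen after seeing the data. Spike-in scaling shifted the median log2 ratio of all tested probes from 0.03 to 0.11. The log2 ratio of Eda ran from -0.02 to 0.12, with no side of 0 fixed. Traf6 ran from 0.46 to 0.73, with a ratio past 1.5 in 10 of 13 alternatives. Tnfrsf19 ran from 0.47 to 0.81, the lowest values being 0.471 as the mean of all 3 probes, 1 of them on the opposite strand, and 0.489 from the earlier rows alone, where A_55_P2742341 is the only measured probe. Eda2r gave only limits, since its CHIR99021 signals are not well above background: at the main probe they ran from -1.13 to -0.99, the mean of the limits of its 2 probes measured in the control was -1.564, and with normexp, which selects A_52_P207163 instead, the limit was -0.92.

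The count of pathway probes called lower was 1 in the main setting, beside 762 of all 28066 probes tested. It was 0 with probes measured on both arrays only (610 of all 25025). It was also 0 with the earlier rows alone (355 of 13578) and without uneven spots (649 of 26361). It was 2 where the Z-score used a single mean and SD of the tested probes (708 of 28066), and 3 by the ratio alone (2717). The probe added at 2 was Eda A_55_P2030667, whose limit was 1.01-fold lower. The count called higher, 0 in the main setting, was 1 with the median and median absolute deviation for the Z-score, where all higher calls went from 670 to 1282 of 28066 probes, and 3 by the ratio alone, where they were 2312. Edar and Edaradd gave no value where background was required to be passed. No paired analysis was possible because the control and CHIR99021 have 1 array each, and leaving out an array leaves no comparison. Signal over background limits Edar, Edaradd and Eda2r, and the earlier rows hold no measured probe of Eda.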
